A study of Homo sapiens with 24 samples.

Results

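The genes described here are spread among other genes along the long arm of human chromosome 10, between WASHC2A and KNDC1, and were listed because that stretch had higher signal in an SLFN11 knockout line of Ewing sarcoma cells. The list holds 59 genes, of which 55 were measured among 17687 genes with a symbol on the array. UBE2D1, CCDC6, CCAR1 and PDCD4 were not analysed here. The choice rested on the difference between the knockout and the parental line in all 8 groups, so that difference is given below as a description, without a test, and so are the values of the neighbouring genes. Of the 55 measured genes, 41 had a mean log2 signal above 6 over all arrays and are called expressed; the other 14 are called dim and are given apart. The cut separates genes with similar signals: FGFR2 (5.99) and MGMT (5.77) lay just below it, and EXOC6 (6.03) and CSTF2T (6.09) just above it.

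RNA was taken from ES8-1F2, a derivative of the human Ewing sarcoma line ES8 in which SLFN11 had been knocked out with CRISPR/Cas9, and from the parental ES8 line. Both lines were given gamma radiation at 2 Gy or 0 Gy, followed by 24 h or 4 h in culture. Each of the 4 combinations, 2 Gy with 24 h, 2 Gy with 4 h, 0 Gy with 24 h and 0 Gy with 4 h, forms a knockout group and a parental group of 3 arrays. All cells were grown in the same medium with serum, and the 0 Gy groups stand for unirradiated cells. As there is 1 derivative line, the loss of SLFN11 and the derivation of the line cannot be told apart, and as the labels do not say that replicates were separate cultures, p-values rest on a spread between arrays that may be technical.

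Ewing sarcoma is a tumour of bone and soft tissue driven by a fusion of EWSR1 with an ETS family gene, most often FLI1. SLFN11 is a Schlafen family protein that blocks stressed replication forks, and its loss is known for making cells less sensitive to drugs that damage DNA. The genes on the chromosome 10 list share no pathway: they encode, among others, helicases, chromatin enzymes, mitochondrial proteins, coats and tethers of membrane traffic, cohesin and its release factor, ubiquitin ligases and a growth factor receptor.

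SLFN11 had a log2 signal of 6.33 to 7.07 (median 6.97) on the 12 knockout arrays, against 8.03 to 8.63 (median 8.30) on the 12 parental arrays, a difference of -1.47 (SE 0.07). Its signal was lower on every knockout array, and it was above background, the 95th percentile of 612 negative control probe sets, on all arrays of both lines. Of 10 Ewing sarcoma markers 9 were measured and all 9 were above background on every array, with a summed log2 signal of 67.5 to 69.2 in knockout and 64.8 to 67.9 in parental cells. The line differences of these markers ran in both directions, from -0.92 for GLI1 and -0.58 for STEAP1 to 0.83 for LIPI and 1.02 for PRKCB, with 0.28 for CD99, the surface marker of this tumour. Of markers of other cells, 2 of 5 epithelial, 2 of 4 blood and 1 of 5 endothelial ones were above background on all arrays. These were KRT8 (mean 6.56 in knockout and 6.45 in parental cells), KRT19 (5.29 and 5.33), CD14 (4.31 and 4.52), CD68 (4.61 and 4.41) and VWF (4.81 and 4.98). The Ewing sarcoma marker FATE1 was dimmer, with 4.05 and 4.00. CDH1, KDR and TEK were above background on no array. The summed log2 signals of the epithelial markers were 20.8 to 22.2 in knockout and 20.6 to 23.2 in parental cells. For the blood markers they were 14.8 to 15.8 and 14.8 to 16.6, and for the endothelial markers 17.0 to 18.3 and 16.9 to 19.7. The second replicates of parental cells given 2 Gy had a narrower interquartile range of signals (3.34 for 24 h, 3.28 for 4 h) than the other arrays (3.42 to 3.62).

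The measured genes of the list were higher in the knockout line by a median of 0.42 log2 units, which is 1.34-fold, when the 4 combinations of dose and time were averaged. The difference was above 0 for 49 of 55 genes, and for 39 of the 41 expressed ones, whose median was also 0.42 with quartiles of 0.27 and 0.53. The median over all 6997 expressed genes of the array was 0.01. For 26 of the 55 genes, the 12 knockout arrays all lay above the 12 parental arrays, which was the case for 3.22% of all genes. Among expressed genes it held for 22 of 41, against 5.83% of all expressed genes, and no listed gene was separated the other way (2.43% of all genes and 3.86% of expressed ones). Because the list was chosen on this contrast, nothing is read from these shares. In these bulk samples, more cells with a transcript and more transcript per cell cannot be told apart, and the arrays measured RNA alone.

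**Figure D1:**
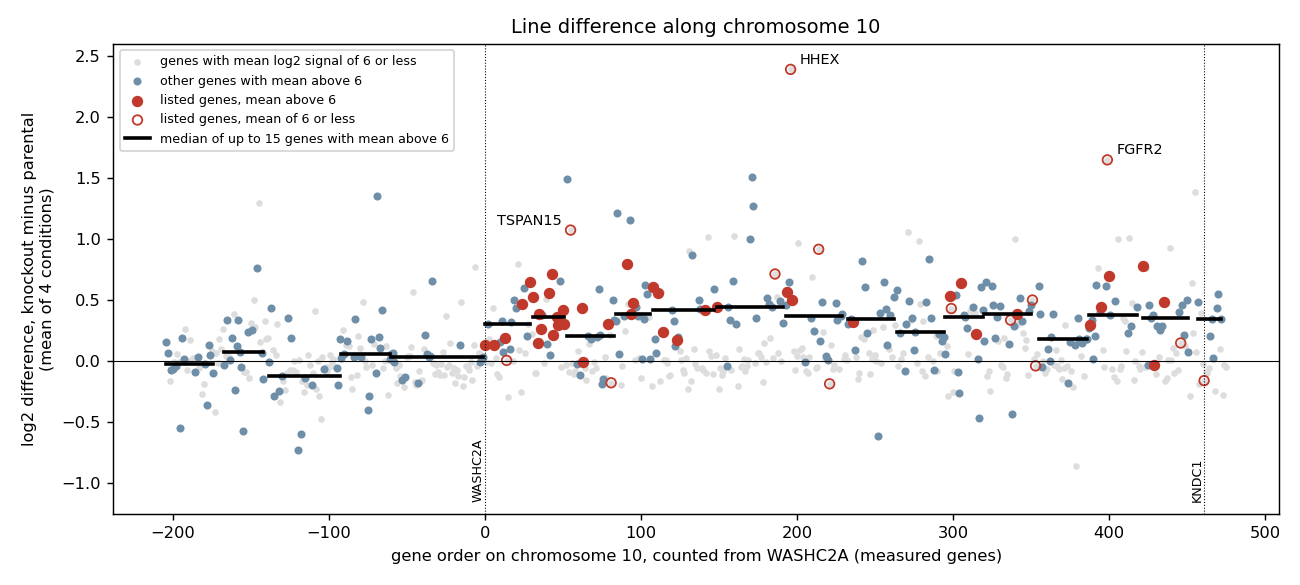
Log2 difference, knockout minus parental, averaged over the 4 conditions (vertical axis), for 680 chromosome 10 genes in their order along the chromosome (horizontal axis, counted in measured genes from WASHC2A). Red marks are the listed genes, blue and grey marks the others, and black bars the medians of consecutive sets of up to 15 expressed genes: full sets lie between 0.18 and 0.45 from WASHC2A on, against -0.12 to 0.08 before it.

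The order of the genes, taken from RefSeq (assembly GRCh38.p14) and used for neighbourhood alone, places 462 measured genes in the stretch, 204 before WASHC2A and 14 after KNDC1. Among the 170 expressed genes of the stretch that are not on the list, the median difference was 0.34, and 154 were above 0. Their 12 arrays per line did not overlap for 56, all higher in knockout cells, against 5.83% of all expressed genes that were separated in that direction and 3.86% in the other. Before WASHC2A, the 75 expressed genes of the chromosome had a median of 0.03, with 43 above 0. In 14 consecutive sets of 15 expressed genes from WASHC2A on, the medians ran from 0.18 to 0.45, and 10 to 15 genes of each set were above 0. In 5 sets before WASHC2A, they ran from -0.12 to 0.08. Chromosome 10 as a whole had a median of 0.27 over 292 expressed genes, and the next chromosome, 15, had 0.05. Shifts limited to part of another chromosome may not show in such medians.

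Both ends of the stretch could be placed against their neighbours. The 3 measured genes just before WASHC2A, PARG (-0.004, SE 0.07), TIMM23B (0.02, SE 0.05) and AGAP6 (0.04, SE 0.05), differed by less than their standard errors. The set of 15 expressed genes that ends with AGAP6 had a median of 0.04, but single genes in it ran from -0.18 to 0.65. WASHC2A itself, a subunit of the endosomal WASH complex, had signals of 8.09 to 8.60 (median 8.31) in knockout and 8.04 to 8.31 (median 8.19) in parental cells. Its groups overlapped, and its difference was 0.14 (SE 0.04). WASHC2A, TIMM23B and AGAP6 have near-identical copies whose transcripts these probe sets may not separate, so their values are uncertain. After KNDC1, the next measured genes UTF1 (-0.09), VENTX (-0.10) and ADAM8 (-0.06) were dim. The 6 expressed genes beyond them had a median of 0.35: ECHS1, an enzyme of mitochondrial fatty acid oxidation, had 0.55 with arrays that did not overlap, FUOM 0.43, ZNF511 0.35, MTG1 0.34, TUBGCP2 0.21 and CALY 0.02. Among expressed genes, higher signals were therefore also present beyond KNDC1.

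The median difference was near 0 for the dimmest genes of the stretch and did not increase steadily with the signal above them. Stretch genes with a mean log2 signal of 4 or less (149 genes) had a median difference of -0.01, those between 4 and 6 (102 genes) 0.07, those between 6 and 8 (134 genes) 0.36 and those above 8 (77 genes) 0.31. Of the listed genes, 3 had a mean of 4 or less and a median difference of -0.04, 11 lay between 4 and 6 with 0.50, 22 between 6 and 8 with 0.48, and 19 above 8 with 0.38. Whether low signals on these arrays hide a difference in transcript was not tested.

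**Figure D2:**
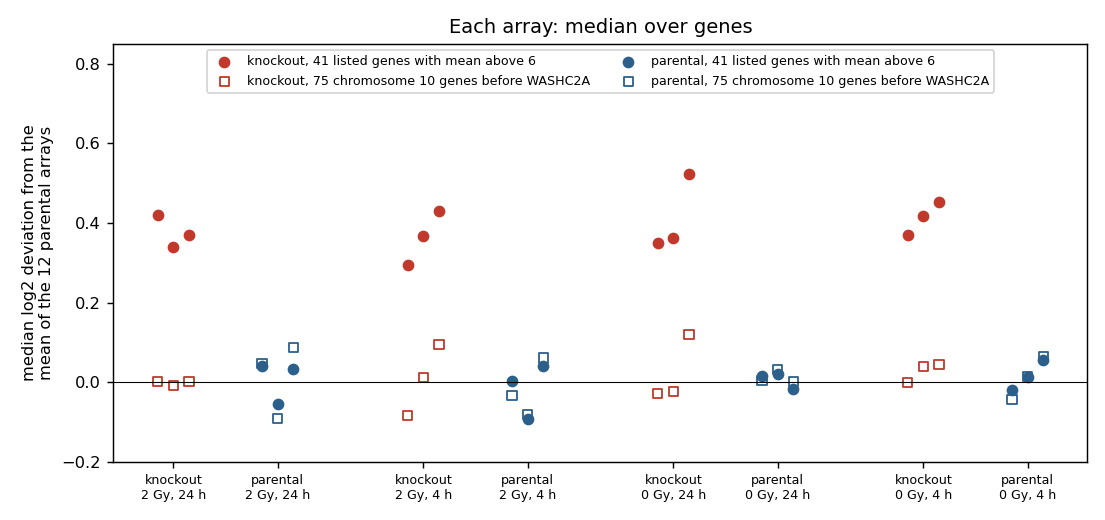
For each array, the median over genes of the log2 deviation from the mean of the 12 parental arrays (vertical axis), by line, dose and time (horizontal axis). Filled circles are the 41 expressed listed genes, which lie between 0.29 and 0.52 on knockout arrays and between -0.09 and 0.06 on parental arrays; open squares are the 75 expressed chromosome 10 genes before WASHC2A, which overlap between the lines.

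The difference was present on each array. The median of the 41 expressed genes, taken against the parental mean of each gene, was 0.29 to 0.52 (median 0.37) on knockout arrays and -0.09 to 0.06 (median 0.01) on parental arrays. Between 37 and 41 of the 41 genes were above their parental mean on a knockout array, against 11 to 30 on a parental array. Chromosome 10 genes before WASHC2A had medians of -0.08 to 0.12 on knockout and -0.09 to 0.09 on parental arrays. The lowest parental values, -0.09 and -0.05, belonged to the arrays with the narrow interquartile range.

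**Figure D3:**
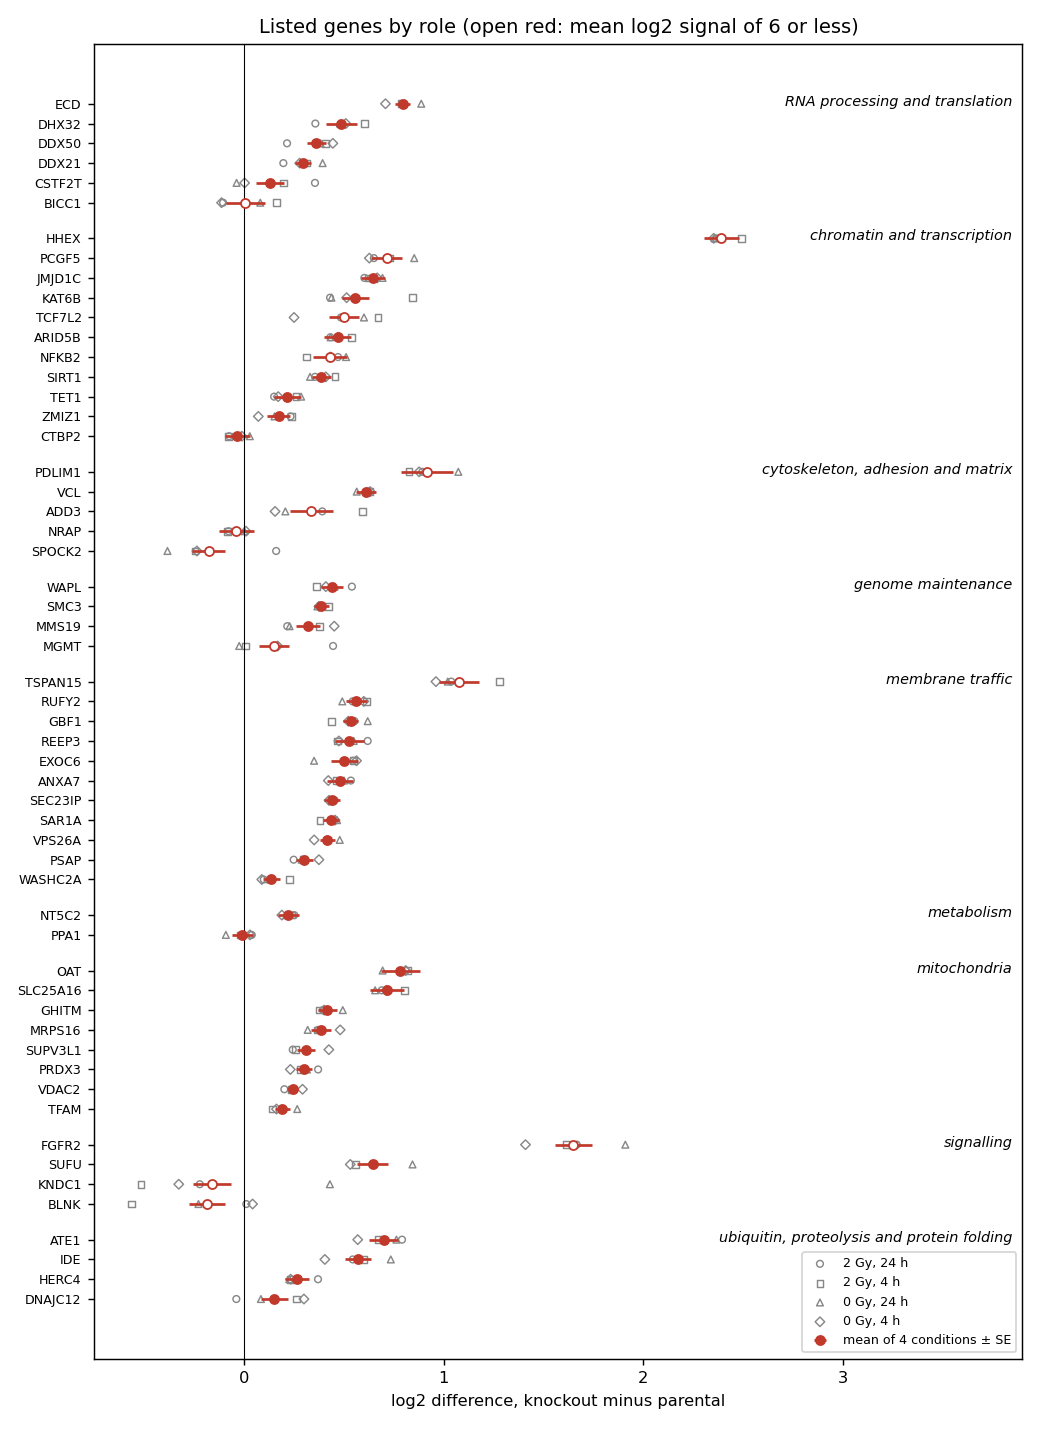
Log2 difference, knockout minus parental (horizontal axis), of the 55 measured genes, grouped by role and sorted within each role (vertical axis). Red circles with bars are the mean of the 4 conditions ± SE (open for dim genes), and grey marks are the single conditions; HHEX at 2.39 and FGFR2 at 1.65 stand to the right of all others.

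The largest differences of the list belonged to dim genes. HHEX, a homeobox transcription factor of endoderm and blood development, had signals of 6.69 to 7.35 (median 6.92) on knockout arrays and 3.94 to 5.03 (median 4.60) on parental arrays. No array of one line came near the range of the other, and the difference was 2.39 (SE 0.09), or 5.25-fold. FGFR2, a receptor for fibroblast growth factors, had 6.32 to 7.26 (median 6.81) in knockout and 4.67 to 5.54 (median 5.18) in parental cells. Its lines were also fully separated, with a difference of 1.65 (SE 0.09), or 3.14-fold. TSPAN15, a tetraspanin that regulates the protease ADAM10, had 5.59 to 6.30 (median 5.90) in knockout and 4.12 to 5.30 (median 4.88) in parental cells, without overlap and with a difference of 1.07 (SE 0.10). PDLIM1, which binds alpha-actinin, had 4.35 to 5.72 (median 5.03) in knockout and 3.74 to 4.98 (median 3.95) in parental cells, and here the ranges overlapped (difference 0.92, SE 0.13). The Polycomb RING finger gene PCGF5 was the remaining dim gene without overlap (difference 0.71, SE 0.08).

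Set against their 10 nearest expressed neighbours, 5 on each side, these genes stood above the median of their surroundings. HHEX at 2.39 lay among neighbours with a median of 0.41, FGFR2 at 1.65 among neighbours with 0.42, TSPAN15 at 1.07 among neighbours with 0.30 and PDLIM1 at 0.92 among neighbours with 0.30. PCGF5 at 0.71 lay among neighbours with 0.48. HHEX, FGFR2 and PDLIM1 also exceeded their highest neighbour (0.65, 0.70 and 0.65). TSPAN15 and PCGF5 did not (1.49 and 1.27). Other dim genes lay below the median of their neighbours. BLNK, the B cell linker adaptor, had -0.19 (neighbours 0.32), the matrix proteoglycan SPOCK2 -0.18 (neighbours 0.32) and KNDC1, a brain-expressed exchange factor, -0.16 (neighbours 0.39). Their single conditions ran from -0.57 to 0.04, -0.38 to 0.16 and -0.52 to 0.43. BLNK was above background on 6 of 12 knockout and 10 of 12 parental arrays. These neighbours were expressed genes. Stretch genes with a mean of 4 or less had a median of -0.01, and those between 4 and 6 of 0.07. NRAP, a muscle actin-binding protein, was above background on no array, and the RNA-binding BICC1 on 3 of 12 knockout and 3 of 12 parental arrays, so their differences of -0.04 and 0.01 carry little information. For the other dim genes the differences were 0.50 (SE 0.07) for TCF7L2, the Wnt pathway factor, 0.43 (SE 0.09) for the NF-kB subunit gene NFKB2, 0.34 (SE 0.11) for the adducin ADD3 and 0.15 (SE 0.07) for MGMT, which repairs alkylated guanine.

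The start regions of HHEX and FGFR2, the genes with the largest differences, and of TFAM are shown to give the DNA that lies next to these genes. Promoters of 300 bases, 250 before and 50 after the RefSeq start (GRCh38.p14), were found for 47 of the 59 genes. Capitals mark the GC box GGGCGG, read on both strands and with overlaps kept, in HHEX (chr10:92689705-92690004, plus strand, 4 matches) and FGFR2 (chr10:121598395-121598694, minus strand, 5 matches). In TFAM (chr10:58385160-58385459, plus strand) they mark the single match, at base 188, to the motif of the nuclear respiratory factor NRF1 (GCGCA, any 1 base, then GCGC), on the other strand.
HHEX: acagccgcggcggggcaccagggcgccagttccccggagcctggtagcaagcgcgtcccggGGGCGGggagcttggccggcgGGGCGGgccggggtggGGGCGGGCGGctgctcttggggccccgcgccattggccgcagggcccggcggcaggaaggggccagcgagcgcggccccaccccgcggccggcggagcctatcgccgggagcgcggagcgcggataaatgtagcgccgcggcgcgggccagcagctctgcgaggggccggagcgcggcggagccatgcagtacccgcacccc
FGFR2: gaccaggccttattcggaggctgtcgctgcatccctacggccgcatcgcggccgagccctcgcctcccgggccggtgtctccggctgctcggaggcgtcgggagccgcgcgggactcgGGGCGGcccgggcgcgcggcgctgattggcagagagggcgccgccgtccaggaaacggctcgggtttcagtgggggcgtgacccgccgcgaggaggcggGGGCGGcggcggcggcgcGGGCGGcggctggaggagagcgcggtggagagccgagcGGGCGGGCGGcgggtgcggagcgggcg
TFAM: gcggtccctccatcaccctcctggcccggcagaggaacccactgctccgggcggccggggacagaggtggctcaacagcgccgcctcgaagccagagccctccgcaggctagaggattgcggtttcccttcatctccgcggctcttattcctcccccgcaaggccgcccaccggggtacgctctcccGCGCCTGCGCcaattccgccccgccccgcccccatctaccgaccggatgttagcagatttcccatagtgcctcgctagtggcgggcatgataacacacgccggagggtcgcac
The GC box was in 61.7% of the listed promoters, against 59.5% of the 14250 promoters of genes on the array. The NRF1 motif was in 3 of 47, those of TFAM, HERC4 and WAPL (6.38%), against 8.84% of all. The cyclic AMP response element TGACGTCA was in none of the 47, against 2.62% of all, and the repeat GGAAGGAA was in that of NFKB2 alone (2.13%), against 3.54% of all. Among expressed genes alone, the GC box was in 61.8% of listed promoters against 71.4% of all, and the NRF1 motif in 8.82% against 14.2%. The response element and the repeat were in 0.0% of expressed listed promoters, against 3.61% and 3.22% of all expressed ones. The median GC content was 62.5% in expressed listed genes, against 65.3% in all expressed genes. It was 69.0% in the 13 promoters of dim listed genes, against 63.0% in all genes on the array. The latter holds dim and expressed genes together, and no set of all dim genes was computed.

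**Figure D4:**
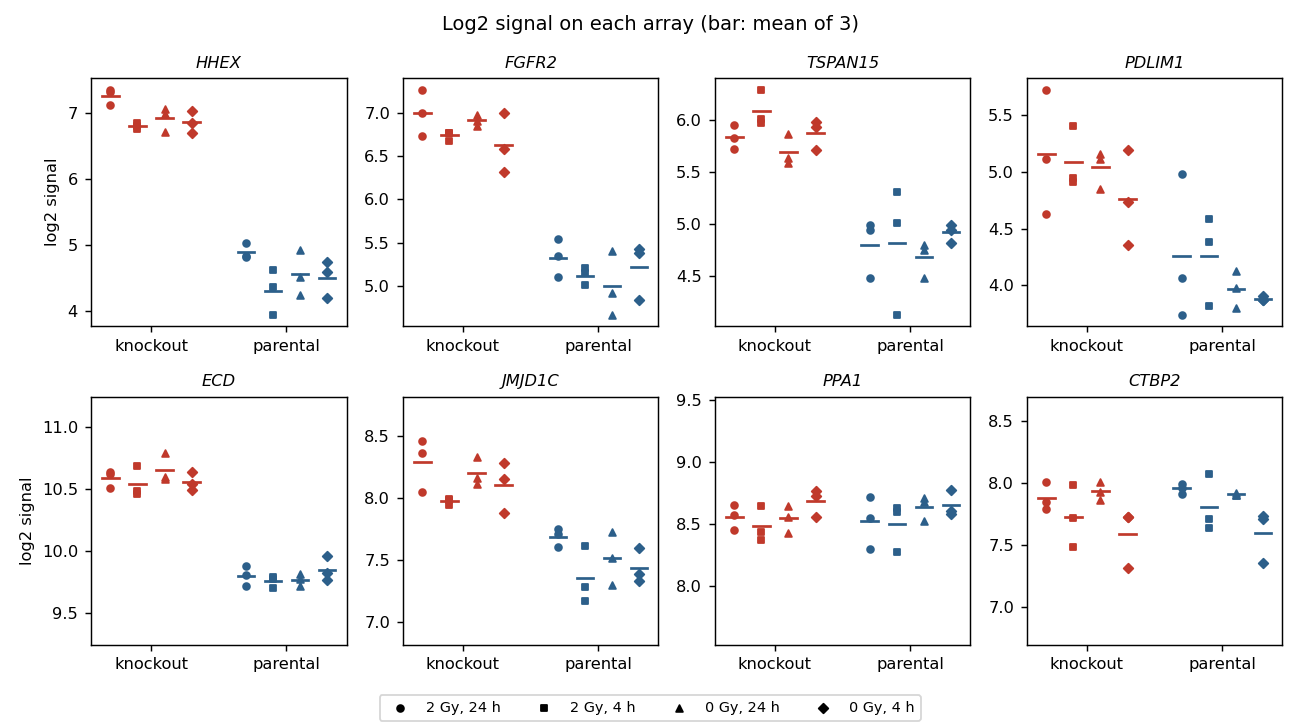
Log2 signal on each array (vertical axis) for 8 listed genes, with the knockout line in red on the left and the parental line in blue on the right of each panel; symbols give dose and time, and bars the mean of 3 arrays. The lines are separated for HHEX, FGFR2, TSPAN15, ECD and JMJD1C, and overlap for PDLIM1, PPA1 and CTBP2.

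Among expressed listed genes, the largest single difference was that of a gene of RNA processing, a role with a median of 0.36 over its expressed genes. ECD, a splicing-associated protein that also binds p53, had signals of 10.46 to 10.79 (median 10.59) in knockout and 9.70 to 9.96 (median 9.78) in parental cells. Its lines were separated by more than the width of either range, with a difference of 0.79 (SE 0.04). The nucleolar RNA helicases DDX50 (0.36, SE 0.05) and DDX21 (0.30, SE 0.04) and the helicase family member DHX32 (0.49, SE 0.08) were also higher. CSTF2T, a polyadenylation factor encoded by an intronless copy of CSTF2, had 5.89 to 6.36 (median 6.16) in knockout and 5.67 to 6.31 (median 6.05) in parental cells, with overlap and a difference of 0.13 (SE 0.07). In this role 5 of 6 measured genes were expressed, and 3 of these did not overlap between the lines. The same held for 78 of the 211 expressed genes of the stretch and 5.83% of all expressed genes.

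Of 11 measured chromatin and transcription genes, 7 were expressed. JMJD1C, a Jumonji-domain protein, had 7.87 to 8.46 (median 8.13) in knockout and 7.17 to 7.75 (median 7.55) in parental cells, without overlap (difference 0.65, SE 0.06). SIRT1, an NAD-dependent deacetylase, was the other expressed gene of this role without overlap (0.39, SE 0.05). ARID5B, a partner of the demethylase PHF2, had a difference of 0.47 (SE 0.07), the acetyltransferase KAT6B 0.56 (SE 0.07), the methylcytosine dioxygenase TET1 0.22 (SE 0.07) and the coactivator ZMIZ1 0.17 (SE 0.06), all with overlap. CTBP2, a corepressor, was an exception: it had 7.31 to 8.01 (median 7.82) in knockout and 7.35 to 8.08 (median 7.90) in parental cells, nearly the same range. Its difference was -0.03 (SE 0.06), among neighbours with a median of 0.37.

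The mitochondrial genes were all expressed and all above 0, with a median of 0.35 over 8 genes, 5 of them without overlap. Of all expressed genes of the stretch, 78 of 211 were separated this way, and 5.83% of those on the array. OAT, ornithine aminotransferase, had 6.77 to 7.67 (median 6.95) in knockout and 5.92 to 6.62 (median 6.33) in parental cells. These ranges did not meet, and the difference was 0.78 (SE 0.10). SLC25A16, a mitochondrial carrier, had 6.19 to 6.77 (median 6.43) in knockout and 5.21 to 6.08 (median 5.79) in parental cells, likewise apart (0.72, SE 0.09). The outer membrane channel VDAC2 differed by a smaller amount with little spread, 10.80 to 10.97 (median 10.90) in knockout and 10.60 to 10.74 (median 10.64) in parental cells (0.24, SE 0.03). The inner membrane protein GHITM (0.42, SE 0.05) and the peroxiredoxin PRDX3 (0.30, SE 0.04) also did not overlap. MRPS16 of the mitochondrial ribosome (0.38, SE 0.05), the RNA helicase SUPV3L1 (0.31, SE 0.05) and TFAM, which packages mitochondrial DNA (0.19, SE 0.04), did.

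Of the 10 expressed membrane traffic genes, 9 did not overlap, and their median difference was 0.46; the roles differ in size, and their counts are descriptions, as 78 of the 211 expressed genes of the stretch and 5.83% of all expressed genes were also separated this way. The retromer subunit VPS26A had 9.42 to 9.65 (median 9.51) in knockout and 8.91 to 9.27 (median 9.11) in parental cells (difference 0.42, SE 0.04). SAR1A, the GTPase that starts the COPII coat, had 9.38 to 9.70 (median 9.53) in knockout and 8.97 to 9.20 (median 9.11) in parental cells (0.44, SE 0.04). Both pairs of ranges were apart, as were those of PSAP, the saposin precursor (0.30, SE 0.04), RUFY2 (0.56, SE 0.05), the Golgi exchange factor GBF1 (0.53, SE 0.04), the membrane shaper REEP3 (0.53, SE 0.07), the exocyst subunit EXOC6 (0.50, SE 0.07), the annexin ANXA7 (0.48, SE 0.07) and SEC23IP, a partner of a COPII subunit (0.44, SE 0.04). WASHC2A was the exception.

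The remaining roles held fewer genes. In genome maintenance, SMC3, a core subunit of cohesin, had 9.98 to 10.32 (median 10.13) in knockout and 9.55 to 9.89 (median 9.75) in parental cells, and WAPL, which releases cohesin, was also without overlap; their differences were 0.39 (SE 0.04) and 0.44 (SE 0.06). MMS19, of iron-sulphur protein assembly, had 0.32 (SE 0.06) with overlap. Of the protein turnover genes, ATE1, the arginyltransferase of the N-degron pathway, had 7.11 to 7.53 (median 7.20) in knockout and 6.01 to 6.97 (median 6.55) in parental cells. It did not overlap (0.70, SE 0.07), while the insulin-degrading enzyme IDE (0.57, SE 0.06), the ubiquitin ligase HERC4 (0.27, SE 0.06) and the co-chaperone DNAJC12 (0.15, SE 0.07) did. SUFU, an inhibitor of GLI factors in Hedgehog signalling, had 6.58 to 7.52 (median 6.998) in knockout and 6.14 to 6.64 (median 6.37) in parental cells, overlapping at the edge (0.64, SE 0.08). Vinculin, VCL, which links adhesions to actin, was the expressed cytoskeletal gene and overlapped at the edge (0.61, SE 0.05). In metabolism, the nucleotidase NT5C2 had 0.22 (SE 0.05), and the pyrophosphatase PPA1 had 8.37 to 8.77 (median 8.56) in knockout and 8.27 to 8.77 (median 8.60) in parental cells, with a difference of -0.01 (SE 0.05) among neighbours with a median of 0.21.

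The line difference of an expressed listed gene was similar in the 4 conditions. These use separate arrays, but the genes were chosen on the line difference in all of them, so the similarity is a description. The spread between the highest and the lowest condition had a median of 0.14 over the 41 expressed genes. It was smallest for SEC23IP, whose difference was 0.45 after 2 Gy and 24 h, 0.44 after 2 Gy and 4 h, 0.45 without irradiation at 24 h, and 0.43 without it at 4 h. It was largest for KAT6B, with 0.43, 0.84, 0.44 and 0.51 in the same order. Some dim genes varied more, with a spread of 0.95 for KNDC1, 0.61 for BLNK, 0.54 for SPOCK2 and 0.50 for FGFR2. For the dim HHEX it was 0.14. Across the 41 genes, which are not independent replicates, the differences of any pair of conditions correlated at 0.81 to 0.90 (Pearson's r, 6 pairs). A limma F test of whether the line difference varied over the conditions, which the choice of genes did not use, called 0 of 55 genes (0.0% of all genes called). At an unadjusted p below 0.05 it found 1 of 55, the dim KNDC1 (limma adjusted p = 1.00), against 2.92% of all genes.

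Irradiation was the treatment of the study and was not used to choose the genes. In the limma fit, 2 Gy against 0 Gy called 0 of 55 listed genes in each line at each time. The share of all genes called was 0.0678% at 24 h and 0.226% at 4 h in parental cells, and 0.0% at both times in knockout cells. At an unadjusted p below 0.05 there were 2 of 55 at 24 h and 1 at 4 h in knockout cells, and 2 at 24 h and 5 at 4 h in parental cells. The shares of all genes at that threshold were 4.16% and 3.30% in knockout and 6.93% and 6.69% in parental cells, at 24 h and 4 h. The medians of the 41 expressed genes were -0.02 and -0.03 in knockout and 0.01 and -0.05 in parental cells, at 24 h and 4 h. The median 95% interval of a single gene reached 0.22 log2 units to either side, without adjustment for the number of genes tested. Shifts below that size were not detectable for a typical gene of the list. Larger differences, such as -0.32 for IDE in parental cells at 4 h, were also not called.

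The lowest p of these tests belonged to ADD3 in parental cells at 4 h. Its signals were 4.44, 3.92 and 5.11 after 2 Gy, against 5.06, 5.17 and 5.27 at 0 Gy. Irradiated replicate 3 lay within the range of the unirradiated ones, and the difference was -0.68 (SE 0.22; limma adjusted p = 0.45). Without that replicate ADD3 passed the threshold. In knockout cells at 4 h, ADD3 had 5.03, 4.88 and 5.34 after 2 Gy and 5.40, 5.24 and 5.33 at 0 Gy. IDE followed in parental cells at 4 h, with -0.32 (SE 0.13; limma adjusted p = 0.64). At 24 h in parental cells, KNDC1 (0.43, SE 0.19) and NFKB2 (0.39, SE 0.17) had the lowest p (limma adjusted p = 0.66 for both). In knockout cells, they were SPOCK2 (0.40, SE 0.17) and IDE (-0.26, SE 0.13) at 24 h, and BLNK (-0.51, SE 0.18) and WASHC2A (0.17, SE 0.09) at 4 h, with limma adjusted p = 1.00 for each.

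The response to 2 Gy was also compared between the lines. The difference of responses, knockout minus parental, was called by limma for 0 of 55 genes at 24 h and at 4 h (0.0% of all genes at both times). At an unadjusted p below 0.05 there were 3 of 55 at 24 h and 1 at 4 h, against 3.17% and 2.61% of all genes. The genes with the lowest p were KNDC1 (-0.65, SE 0.27) and SPOCK2 (0.54, SE 0.23) at 24 h, and BLNK (-0.61, SE 0.26) and TCF7L2 (0.42, SE 0.21) at 4 h, all dim. The median 95% interval for a gene, again unadjusted, reached 0.31 log2 units to either side here.

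Time after treatment gave the same count. At 24 h against 4 h, limma called 0 of 55 in knockout cells at 2 Gy (0.0452% of all genes called) and at 0 Gy (0.0%), and 0 of 55 in parental cells at 2 Gy (0.695%) and at 0 Gy (0.0%). At an unadjusted p below 0.05 there were 6 and 3 in knockout and 7 and 3 in parental cells, at 2 Gy and 0 Gy. The shares of all genes at that threshold were 7.94% and 6.87% in knockout and 8.80% and 4.69% in parental cells. The lowest p belonged to ARID5B in parental cells at 2 Gy, with signals of 8.09, 8.06 and 7.77 at 24 h, against 7.65, 7.33 and 7.54 at 4 h. These groups did not overlap, but the difference of 0.47 (SE 0.13) did not pass (limma adjusted p = 0.12). KAT6B in the same cells had 6.53, 6.47 and 6.54 at 24 h and 6.13, 5.94 and 6.09 at 4 h, also apart (0.45, SE 0.13; limma adjusted p = 0.14). In knockout cells at 2 Gy, VCL (0.32, SE 0.10; limma adjusted p = 0.34) and WASHC2A (-0.25, SE 0.09; limma adjusted p = 0.38) had the lowest p. At 0 Gy, these were CTBP2 (0.35, SE 0.13) and SUPV3L1 (-0.21, SE 0.09) in knockout cells, and IDE (-0.35, SE 0.13) and CTBP2 (0.31, SE 0.13) in parental cells.

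**Figure D5:**
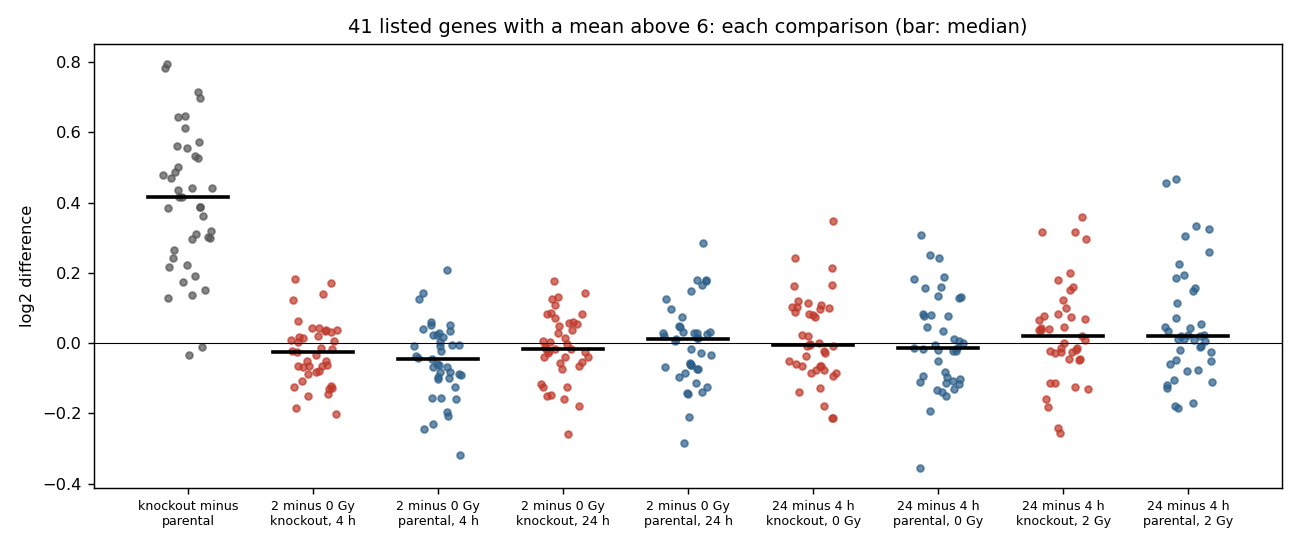
Log2 differences (vertical axis) of the 41 expressed listed genes in 9 comparisons (horizontal axis); each point is a gene and each bar the median. The line difference, on which the genes were chosen, has a median of 0.42, and the medians for irradiation and time lie between -0.05 and 0.02.

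Other genes of the stretch were looked at through lists by function. Of the 9 genes for mitosis and replication, all measured and 8 expressed, 4 did not overlap between the lines. The same held for 56 of the 170 unlisted expressed genes of the stretch, 3.22% of all genes and 5.83% of expressed ones. The 4 were the spindle motors KIF11 (0.65, SE 0.05) and KIF20B (0.47, SE 0.05), the checkpoint protein BUB3 (0.44, SE 0.04) and the MCM-binding protein MCMBP (0.41, SE 0.04). CDK1 had 0.44 (SE 0.06), MKI67 0.40 (SE 0.04), HELLS 0.25 (SE 0.04), the helicase DNA2 0.05 (SE 0.07) and CEP55, a dim gene of cytokinesis, 0.97 (SE 0.09). The largest differences among expressed genes not listed were those of ACTA2, smooth muscle actin (1.51, SE 0.07), HK1, a hexokinase (1.49, SE 0.07), and FAS, a death receptor (1.27, SE 0.09). FAS had 6.83 to 7.96 (median 7.52) in knockout and 5.58 to 6.61 (median 6.14) in parental cells. The lowest were CNNM1 (-0.61, SE 0.10), the neurofilament gene INA (-0.47, SE 0.08) and MXI1, a MAX-binding repressor (-0.43, SE 0.06), all with overlap. Of the lipid genes, the lysosomal lipase LIPA had 0.35 (SE 0.08), the desaturase SCD 0.23 (SE 0.05) and the dim ACSL5 -0.11 (SE 0.07).

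The limma fit for irradiation was read for the mitosis list as well. That list was chosen with earlier results of these data known, so its counts are descriptions. In parental cells at 4 h, 3 of the 9 were lower after 2 Gy in the limma fit (0.226% of all genes called in either direction), and all 9 were below 0. MKI67, a marker of dividing cells, had 9.01, 8.99 and 8.82 after 2 Gy, against 9.44, 9.53 and 9.31 at 0 Gy (-0.49, SE 0.09; limma adjusted p = 0.0025). KIF11 had 8.26, 7.91 and 8.17 after 2 Gy and 8.68, 8.56 and 8.60 at 0 Gy (-0.50, SE 0.10; limma adjusted p = 0.0060). CEP55 had 4.67, 4.22 and 4.57 after 2 Gy and 5.66, 5.42 and 5.25 at 0 Gy (-0.96, SE 0.18; limma adjusted p = 0.0058). For each of them the irradiated and unirradiated arrays did not overlap. In knockout cells at 4 h, 0 of 9 were called by limma and 8 of 9 were below 0, with -0.28 (SE 0.09) for MKI67, -0.19 (SE 0.10) for KIF11 and -0.53 (SE 0.18) for CEP55. The differences between the lines in this response, 0.21 (SE 0.12), 0.31 (SE 0.14) and 0.43 (SE 0.26), did not pass (limma adjusted p = 1.00 for each). At 24 h after 2 Gy, parental MKI67 was higher than at 4 h, by 0.40 (SE 0.09; limma adjusted p = 0.017), the only call of the list for time.

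These calls were not all stable when an array was left out. Without parental 0 Gy, 4 h replicate 1, KIF11 (-0.47, limma adjusted p = 0.080) and CEP55 (-0.85, limma adjusted p = 0.097) no longer passed, nor did they without parental 2 Gy, 4 h replicate 2, an array with a narrow interquartile range (-0.40 with 0.17 and -0.82 with 0.11); MKI67 passed in each of these fits. The MKI67 call for time was lost without parental 2 Gy, 4 h replicate 3 (0.34, limma adjusted p = 0.096) or parental 2 Gy, 24 h replicate 1 (0.39, 0.084) or 3 (0.40, 0.068).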

How the data were processed

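The deposited table holds log2 signals per probe set for 24 Affymetrix whole-transcript arrays; per the submitters' processing notes the authors' tools were Affymetrix Expression Console 1.1 and RMA. The genome build and the set of arrays normalized in 1 run are not given in the sources used here. Of 24351 probe sets, 17709 have 1 gene symbol in the platform annotation, 0 several, 2903 are controls and 3739 others are unnamed. Where a gene had several probe sets (20 genes), the brightest on average was used, which gave 17687 genes, and dim genes were kept. RMA pulls the signal distributions of arrays together, so differences are relative to all genes, and it compresses differences at low signal. Arrays carry no read depth, and their number limits the precision.

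Differences were computed in R 4.3.3 with limma 3.58.1 (lmFit, eBayes with intensity trend) in a single fit of all 24 arrays, where the 8 groups share the spread. Adjusted p-values are Benjamini-Hochberg over 17687 genes, two-sided, and a gene was called below 0.05. Tables and figures were made in Python 3.11.15 with pandas 2.3.3 and matplotlib 3.10.9. Genes were ordered by Entrez ID in RefSeq (GRCh38.p14), where all 17687 matched.

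The listed genes (members) and the lists of other genes were chosen with earlier results of these data known. Named in full were SLFN11, the 6 expressed members with the largest and the 4 with the smallest line difference, and the 3 brightest expressed members of each role. So were the extremes of the dim members, members called in a comparison or else the 2 with the lowest p, and 3 genes beyond each end. The fixed lists were also named, with the 3 largest and 3 lowest expressed genes of the stretch. The expressed genes after KNDC1 and the cell markers given by value were named after their values were seen.

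Replicate numbers come from the sample titles. Same-numbered arrays deviated together, with every correlation above 0.1, in 4 of 12 comparisons: between the lines at 2 Gy, 24 h (0.15 to 0.23) and 0 Gy, 4 h (0.10 to 0.17), and for irradiation in knockout cells at 24 h (0.13 to 0.24) and 4 h (0.15 to 0.27). Alternatives were a filter at 6, centring, quantile normalization, averaged probe sets, a replicate block, no trend, array weights, fits on the compared groups alone, both narrow-range arrays left out, and each array left out in turn.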

Additional observations from a re-analysis of the deposited data

How the results depend on the processing

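The median line difference of the expressed listed genes was 0.39 to 0.44 over 6 alternatives and 0.39 to 0.43 when each of 24 arrays was left out; for other expressed genes of the stretch it was 0.30 to 0.36 and 0.32 to 0.36. The replicate block left the 0 calls for irradiation unchanged, and changed 1 count. For time in parental cells at 2 Gy, where replicate numbers did not meet the pairing criterion, 2 listed genes were called with the replicate block (ARID5B and VCL) and 2 with array weights (HHEX and VCL), against 0. For 2 Gy in parental cells at 4 h, leaving out 1 array gave 0 to 1 calls, the 1 being ADD3 without parental 2 Gy, 4 h replicate 3. The other 419 of the recomputed medians and counts stayed within the spread of arrays or at the same count. PPA1 (-0.07 to 0.01) and CTBP2 (-0.07 to 0.0001) changed sign among 30 alternatives each. HHEX ranged from 2.35 to 2.44 and FGFR2 from 1.60 to 1.70 over 29.

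Outside the list, without the intensity trend the irradiation calls of KIF11 and MKI67 (limma adjusted p = 0.087 and 0.081) and the time call of MKI67 (0.14) were lost. With the compared groups alone, those of KIF11 and CEP55 were lost (0.067 for both). Without both narrow-range arrays, KIF11 (0.061) and the time call of MKI67 (0.088) were lost. The causes were not tested. Signals near background limit what can be said of the dim genes NRAP, BICC1 and BLNK. The other dim listed genes were above background on every array, but differences at low signal are compressed. Having 3 arrays a group limits the detection of small irradiation responses.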
